A study of Mus musculus with 30 samples.

Results

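Synaptic and neuronal identity genes were read in the brains of 10 mice, with kidney and heart of the same animals as background. These 34 named genes code for the release machinery, the postsynaptic scaffold, glutamate receptor subunits, transmitter synthesis and transport, neuropeptides and the neuronal cytoskeleton. They were chosen by name, with earlier results of these data known. Of these, 33 had at least 1 annotated probe, with 48 probes in all, and Grin1, which codes for the obligatory subunit of the NMDA receptor, was not analysed here. In brain, 40 probes of 29 genes counted as expressed, meaning that 2 or more of the 10 arrays gave a detection p-value below 0.05, and 37 probes were detected on all 10. The mice were wildtype males of the strain C57BL/6JRj. There were 4 animals at 25 months given rapamycin, 2 controls at 25 months and 4 controls at 25 weeks, with 1 Illumina array per mouse and tissue. By the treatment protocol, rapamycin or vehicle was assigned at random, dosing of this cohort began at 13 months and lasted longer than 12 months, and what the 25-week controls received was not stated. Rapamycin inhibits the kinase mTOR, a regulator of protein synthesis and cell growth.

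Nerve cells pass signals at synapses. Vesicles filled with transmitter by dedicated carriers fuse with the presynaptic membrane through a complex of SNARE proteins that calcium triggers by way of synaptotagmin, and complexins hold that complex ready. On the other side, a scaffold built on PSD-95 and Homer proteins anchors glutamate receptors and the kinase CaMKII. Excitatory, inhibitory and peptide-releasing neurons each carry their own enzymes, vesicular transporters and peptides, so their transcripts mark those cells in whole brain tissue. The labels name the tissue as brain and no region of it, and in such bulk samples fewer cells of a type and less RNA per cell cannot be told apart.

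Sample titles and the other labels disagreed. The titles marked the 25-month controls with a "y", whereas their source name and stated age gave 25 months, which were followed here. C4b, a complement gene that rises with age in mouse brain, read 9.23, 9.42, 9.60 and 9.45 on the log2 scale in rapamycin brains, 9.43 and 9.64 in 25-month controls, and 7.41, 7.36, 7.34 and 7.11 in 25-week controls. By this gene the arrays labelled 25 months lay together and apart from those labelled 25 weeks. If the titles were followed instead, the sign of the age difference would turn round and the comparisons of rapamycin with each control group would change places. Between 12975 and 13562 probes were detected per brain array, 9989 to 12777 per kidney array and 11923 to 12686 per heart array. Of 14 heart and kidney marker genes, 8 were detected on none of the 10 brain arrays, namely Myh6, Actc1, Myl7, Tnni3, Umod, Slc12a1, Aqp2 and Lrp2. The heart genes Myl2 and Nppa and the kidney gene Slc22a6 were detected on all 10 brain arrays, at means of 5.19, 5.19 and 5.83 on the log2 scale, against 14.36 and 14.18 in heart and 12.53 in kidney. Slc34a1 and Ryr2 were detected on 2 brain arrays each and Kap on 1.

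The promoter windows of 3 genes are shown because they hold the short motifs by which some of these genes are known to be controlled. The sequences are those of RefSeq on the build GRCm38.p6 and run from 250 bases before to 50 bases after the annotated gene start, 5′ to 3′ on the strand of the gene, 300 bases each. Capitals mark matches on either strand to TGACGTCA, the full cAMP response element, to its core TGACGT, which lies within the full element, and to TTCAGCACC, the left part of the element bound by REST, a repressor of neuronal genes outside the nervous system.
Syn1, chrX:20920869-20921168, minus strand: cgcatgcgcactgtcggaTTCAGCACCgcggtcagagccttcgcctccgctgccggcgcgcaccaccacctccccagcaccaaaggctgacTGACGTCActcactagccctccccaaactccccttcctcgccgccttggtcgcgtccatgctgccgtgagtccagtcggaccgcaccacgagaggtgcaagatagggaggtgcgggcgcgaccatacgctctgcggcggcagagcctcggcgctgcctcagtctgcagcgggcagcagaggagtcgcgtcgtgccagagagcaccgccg
Sst, chr16:23890795-23891094, minus strand: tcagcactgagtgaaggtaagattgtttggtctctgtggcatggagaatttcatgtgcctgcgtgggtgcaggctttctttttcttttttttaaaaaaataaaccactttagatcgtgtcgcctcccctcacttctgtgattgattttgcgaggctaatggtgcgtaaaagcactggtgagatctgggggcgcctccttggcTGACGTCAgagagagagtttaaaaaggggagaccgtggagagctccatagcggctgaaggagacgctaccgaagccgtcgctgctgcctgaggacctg
Vip, chr10:5638968-5639267, plus strand: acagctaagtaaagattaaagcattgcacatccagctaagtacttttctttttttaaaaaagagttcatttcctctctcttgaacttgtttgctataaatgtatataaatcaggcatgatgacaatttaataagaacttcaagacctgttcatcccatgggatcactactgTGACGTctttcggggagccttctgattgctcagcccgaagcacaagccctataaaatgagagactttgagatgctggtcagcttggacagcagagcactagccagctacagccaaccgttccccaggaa
Of the 34 genes, 24 had at least 1 such window, 31 windows in all. The full element was found in Sst and Syn1, at positions -48 to -41 and -159 to -152 relative to the gene start. Of the 31 windows 2 held it, beside 1.79% of all 32851 windows. Its core was found in 5 genes, Homer1, Rab3a, Sst, Syn1 and Vip, and in 5 of the 31 windows, against 7.51% of all windows. The left part of the REST element was found in Syn1 only among the 24 genes searched, at positions -232 to -224. This was 1 of the 31 windows, beside 0.371% of all windows. These matches describe letters in a window and were not tested as binding sites.

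The first comparison asked how far the genes belonged to brain. Brain was set against kidney and heart of the same mice, with all 30 arrays normalised together, so levels there differ slightly from those normalised within brain. Of the 29 genes tested, 28 were higher in brain than in kidney, against 37.5% of all 16110 probes tested, and 29 were higher than in heart, against 35.6% of all 15955 probes (limma, Benjamini-Hochberg adjusted p under 0.05). By the brightest probe, 15 of the 29 genes were not well above background on any kidney array and 12 on any heart array. The median fitted difference on the log2 scale, such genes included, was 5.23 over kidney and 4.78 over heart, beside -0.04 and -0.06 for all probes. With such genes set at their lower bounds the medians were 5.23 and 4.69. Of the 29 genes, 11 were detected on no kidney and no heart array by the brightest probe, and 9 by any probe. By the brightest probe, 7 were detected on every kidney and every heart array. Genes undetected in the other tissue could enter a comparison only through brain, and the brightest probe was picked by its brain signal. The 4 genes whose probes were detected on no array were left out. The counts higher in brain were thus partly fixed by these steps, and the shares of all probes involved no such choice of probe.

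**Figure D1:**
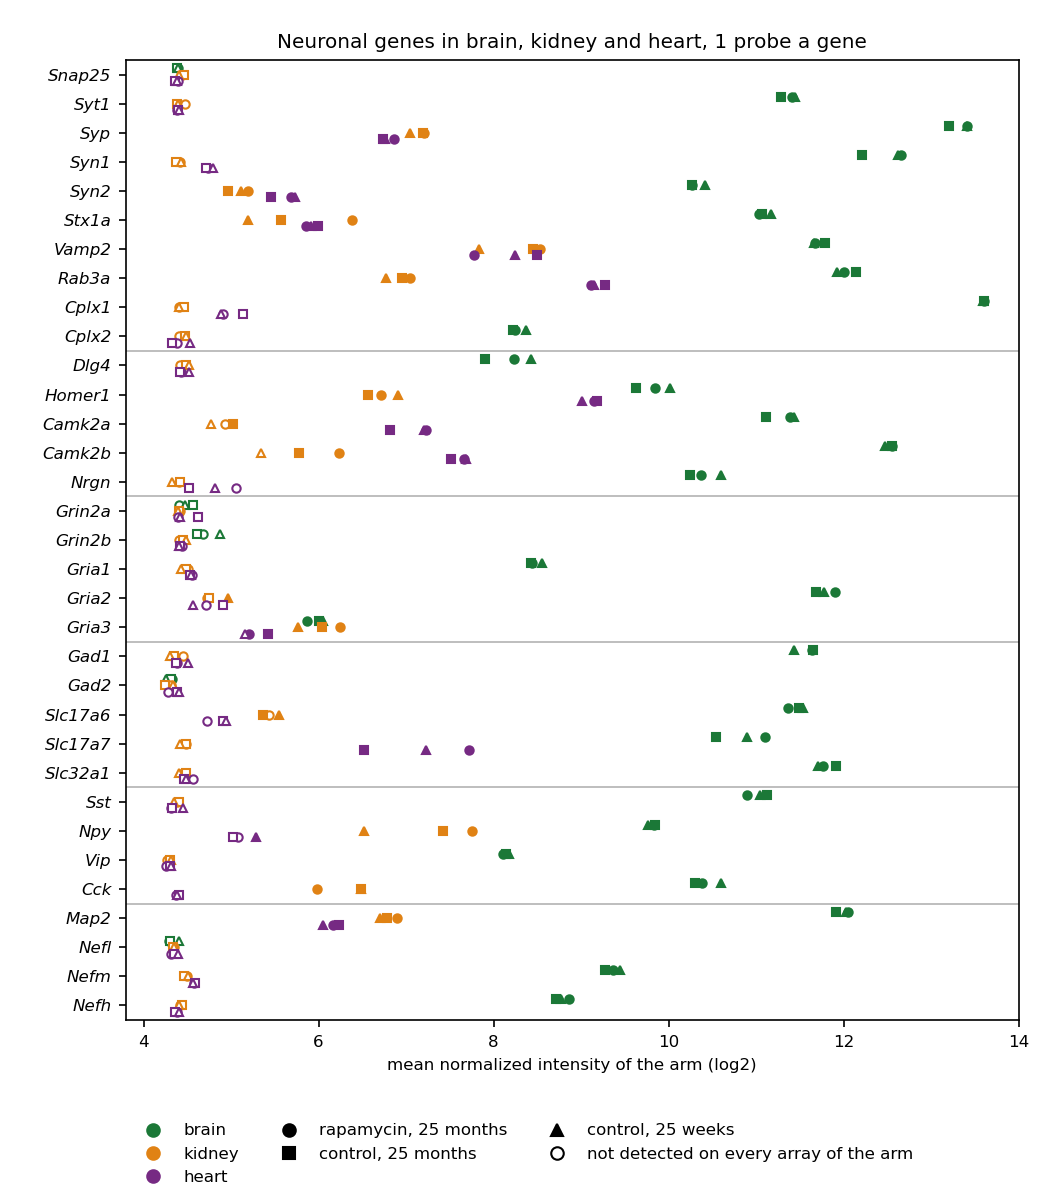
Mean log2 normalized intensity (horizontal axis) of 33 genes, 1 probe each, in brain, kidney and heart for the rapamycin mice at 25 months, the controls at 25 months and the controls at 25 weeks, with hollow symbols where a probe was not detected on every array of the arm. Brain symbols lie to the right of kidney and heart symbols for 28 of the 29 genes tested against kidney, and Gria3 lies level with kidney. Snap25, Grin2a, Gad2 and Nefl stay at the low end in all 3 tissues.

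Genes of the release machinery were far higher in brain, and several of them were also read outside it. Cplx1, a complexin, averaged 13.60 ± 0.07 in brain (SD, n = 10) and was not well above background on any kidney array, a difference of at least 398-fold. Such a bound sets the brain mean against the lowest signal called detected on each kidney array. Syn1, a synapsin that tethers vesicles, was at least 193-fold higher in brain than in kidney. Syt1, the calcium sensor of fast release, was at least 86.7-fold higher than in kidney and at least 89.2-fold higher than in heart. By contrast, Rab3a, a small GTPase of secretory vesicles, was detected on all 10 heart arrays, where it averaged 9.16 ± 0.17, and brain at 12.00 ± 0.15 was 7.20-fold higher. Vamp2, the vesicle SNARE synaptobrevin, was read on every kidney and heart array and was 10.8-fold higher in brain than in kidney and 11.6-fold higher than in heart. Both are known from secretory cells outside the nervous system as well.

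Postsynaptic genes divided in the same way. Dlg4, which codes for the scaffold PSD-95, was not well above background on any kidney or heart array and was at least 9.73-fold and at least 10.0-fold higher in brain. Nrgn, the calmodulin-binding protein neurogranin, was at least 44.4-fold higher in brain than in kidney, and 2 of 10 heart arrays detected it. Homer1 averaged 9.88 ± 0.20 in brain and 9.10 ± 0.12 in heart, a difference of only 1.64-fold (adjusted p = 2.31e-09, limma), while it was 8.63-fold higher in brain than in kidney. Homer proteins are known from muscle as well as from synapses. Camk2a, the alpha subunit of CaMKII, was detected on all 10 heart arrays at 7.14 ± 0.27 and was 18.8-fold higher in brain.

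Among glutamate receptor subunits, Gria2, the AMPA receptor subunit that limits calcium entry, was detected by its brightest probe on 10 of 10 brain arrays, 4 of 10 kidney arrays and 1 of 10 heart arrays. Its second probe was detected on no kidney and no heart array and was at least 31.9-fold higher in brain than in kidney and at least 32.8-fold higher than in heart. Gria1 was at least 11.5-fold and at least 11.8-fold higher by its brightest probe, and another of its probes was detected on 1 of 10 heart arrays. Gria3 averaged 5.97 ± 0.16 in brain and 6.01 ± 0.38 in kidney, a difference of -0.04 ± 0.12 on the log2 scale (adjusted p = 0.75, limma). It was the 1 gene of the 29 not called against kidney. Grin2b, an NMDA receptor subunit, averaged 4.75 ± 0.20 in brain, where 5 of 10 arrays detected it, and 4.45 ± 0.09 in kidney, where none did, and no fold is given because its bound lay below 1.

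Among transmitter and peptide genes, Gad1, Slc32a1, Sst and Vip were detected on no kidney and no heart array by the brightest probe. A second Vip probe was detected on 1 of 10 kidney arrays and on no brain array. Gad1, which makes GABA, was at least 96.7-fold higher in brain than in kidney, and Slc32a1, the carrier that loads GABA into vesicles, at least 112-fold. Slc17a7, the vesicular glutamate transporter VGLUT1, was at least 61.6-fold higher than in kidney, but it was detected on all 10 heart arrays. In heart it averaged 7.72 ± 0.63 in rapamycin mice (n = 4), 6.52 ± 0.48 in 25-month controls (n = 2) and 7.23 ± 0.31 in 25-week controls (n = 4), a difference between arms that was not tested. The peptide gene Sst was at least 66.0-fold higher in brain than in kidney and Vip at least 9.08-fold. Cck was read on all 10 kidney arrays at 6.28 ± 0.37 and on no heart array, and Npy on all 10 kidney and 8 of 10 heart arrays. In the cytoskeleton group, Nefm and Nefh, the medium and heavy neurofilament subunits, were at least 21.3-fold and 14.2-fold higher in brain than in kidney, and Map2, a dendritic microtubule protein, was 36.9-fold higher.

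Other genes known from brain neurons were not read by their probes. The probes of Snap25, the SNARE of the presynaptic membrane, Gad2, the second GABA-making enzyme, Nefl, the light neurofilament, and Grin2a, an NMDA receptor subunit, were detected on 0 of 10 brain arrays. Snap25 lay between 4.30 and 4.51 on the log2 scale over the 10 brains, a level not well above background. These 4 genes gave no comparison, and their low readings hold for these probes only.

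The second comparison asked whether the genes differed with age, between 25-month and 25-week controls. None of the 29 genes passed the threshold, beside 0.85% of all 14473 probes tested, of which 104 were higher and 19 lower at 25 months (limma). At an unadjusted p under 0.05 there were 6 genes, 20.7% of the 29, beside 12.6% of all probes. The 29 differences had a median of -0.098 on the log2 scale, with a range of -0.50 to 0.20, and 21 of them were below 0, beside a median of -0.006 for all probes. The arrays of both control groups did not overlap for 12 genes, or 41.4%, of which 9 were lower and 3 higher at 25 months, beside 23.1% of all probes. The 95% interval of the difference lay within 1 log2 on either side of 0 for all 29 genes and within 0.5 for 21.

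The third comparison set rapamycin against control at 25 months. None of the 29 genes passed, beside 0.0276% of all probes, and the smallest adjusted p among them was 0.431. At an unadjusted p under 0.05 there were 3 genes, 10.3%, beside 9.83% of all probes. The differences had a median of 0.031 and ranged from -0.19 to 0.49, and the arrays did not overlap for 12 genes, 9 higher and 3 lower under rapamycin, beside 20.3% of all probes. A kidney gene moved with the control group. Slc34a1, a renal phosphate carrier, read between 4.37 and 4.58 in rapamycin brains, 5.64 and 5.54 in 25-month control brains and between 4.45 and 4.63 in 25-week brains. It was 1 of the 4 probes called in rapamycin against 25-month control, at -1.11 ± 0.09 (adjusted p = 0.000441, limma). With age it also passed, at 1.07 ± 0.09 (adjusted p = 0.000102, limma). It was 1 of 2 kidney genes tested in brain and is named after its values were seen. The other, Slc22a6, was called in neither comparison. The medians of the 2 genes were 0.55 with age and -0.48 in rapamycin against 25-month control. The part of Slc34a1 in the values of the neuronal genes was not tested. The same 2 control mice stand in this comparison and in that of age, so the values of both are given side by side without being set against each other.

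The fourth comparison set rapamycin at 25 months against control at 25 weeks, groups that differ in both age and treatment. None of the 29 genes passed, beside 1.09% of all probes, and the smallest adjusted p among them was 0.327. Their differences had a median of -0.043 and a range of -0.24 to 0.19, and 1 gene, Stx1a, had arrays that did not overlap, 3.45% beside 7.84% of all probes. With 4, 2 and 4 mice the p-values measure only the spread between these animals, and the pair of 25-month controls borrowed the spread of the other groups.

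**Figure D2:**
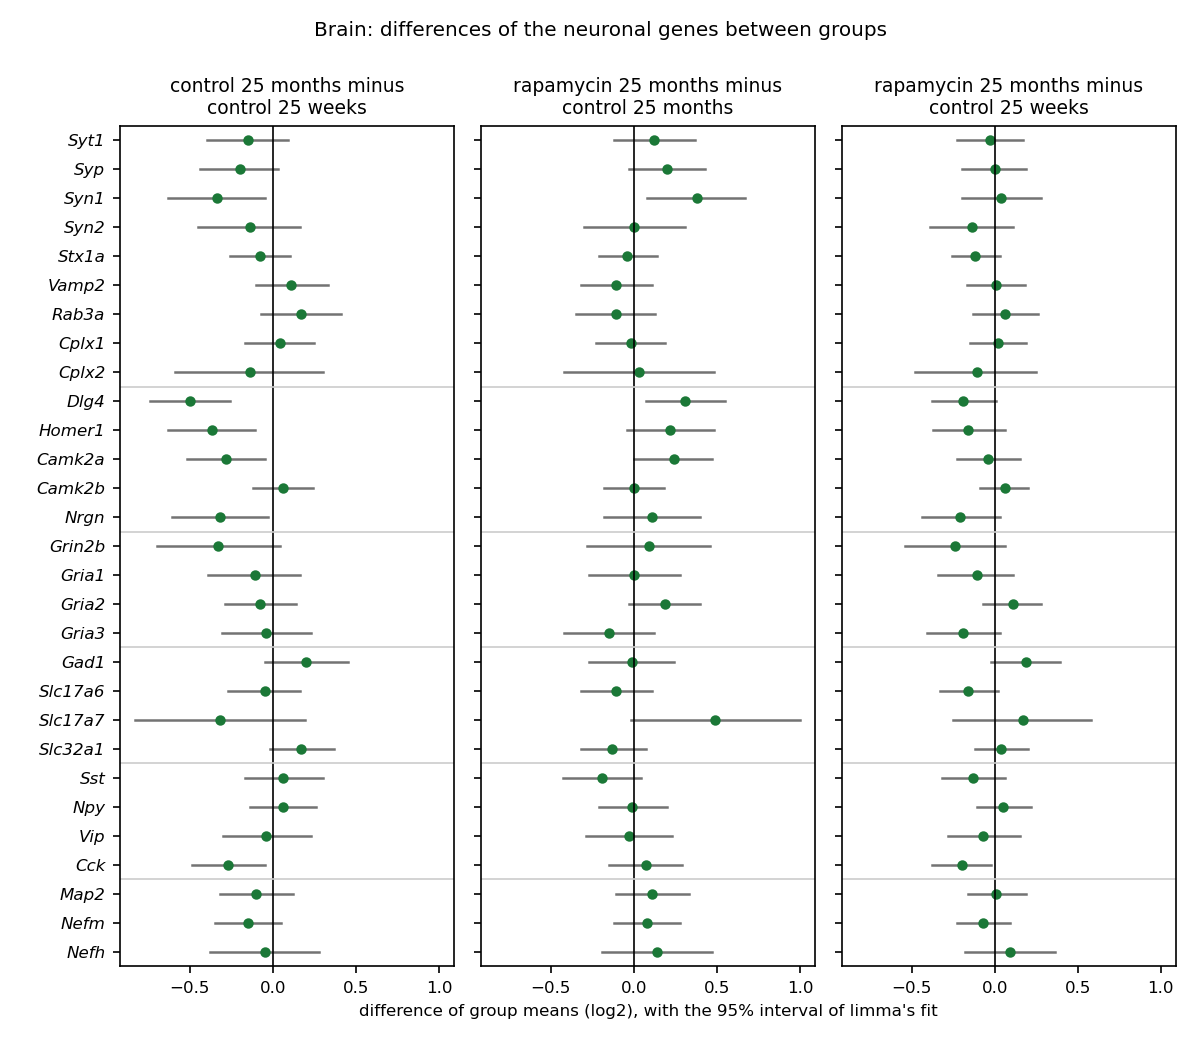
Difference of group means in brain on the log2 scale (horizontal axis) for 29 genes, with points for limma's estimate and lines for its 95% interval, in the 3 comparisons named above the panels. Dlg4 sits farthest to the left in the age panel at -0.50, and Slc17a7 farthest to the right in the panel of rapamycin against 25-month control at 0.49. Every interval lies within 1 log2 of 0.

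The postsynaptic scaffold and kinase group held the largest age differences, with 0 of 5 genes called and a median of -0.32. Dlg4 read 8.66, 8.32, 8.46 and 8.36 in rapamycin brains, 8.18 and 8.09 in 25-month controls, and 8.66, 8.53, 8.60 and 8.77 in 25-week controls. Both 25-month controls lay below each of the other 8 arrays. The age difference was -0.50 ± 0.11 (SE), or 0.707-fold, with an adjusted p of 0.0598 by limma, just outside the threshold. It fell inside under 5 other processing settings and without rapamycin mouse 1, with adjusted p between 0.0149 and 0.0404, and the adjusted p was 0.283 without 25-month control 1 and 0.302 without 25-month control 2. Rapamycin minus 25-month control was 0.31 ± 0.11 (adjusted p = 0.431), and rapamycin minus 25-week control was -0.19 ± 0.09 (adjusted p = 0.402).

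Homer1, a scaffold that links receptors to calcium stores, gave like values from its 2 brightest probes. The brighter probe read 10.08, 9.98, 9.88 and 10.00 in rapamycin brains, 9.75 and 9.78 in 25-month controls, and 9.99, 10.13, 10.01 and 10.43 in 25-week controls. Both 25-month controls were again below all other arrays. The age difference was -0.37 ± 0.12 (adjusted p = 0.203) for this probe and -0.37 ± 0.09 (adjusted p = 0.103) for the second. Rapamycin minus 25-month control was 0.22 ± 0.12 and 0.21 ± 0.09 for the same probes.

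Camk2a read 11.31, 11.24, 11.44 and 11.42 in rapamycin brains, 11.20 and 11.03 in 25-month controls, and 11.34, 11.31, 11.33 and 11.59 in 25-week controls. The 25-month controls were lowest, and 25-week mouse 4 stood above the other 3 mice of its group. Its age difference was -0.28 ± 0.11 (adjusted p = 0.286), and without 25-week mouse 4 it was -0.21. Nrgn showed an age difference of -0.32 ± 0.13 (adjusted p = 0.336), and its value was -0.22 without the same mouse. Camk2b, the beta subunit of the kinase, varied by only 0.14 over the 10 arrays, and its age difference was 0.06 ± 0.08.

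**Figure D3:**
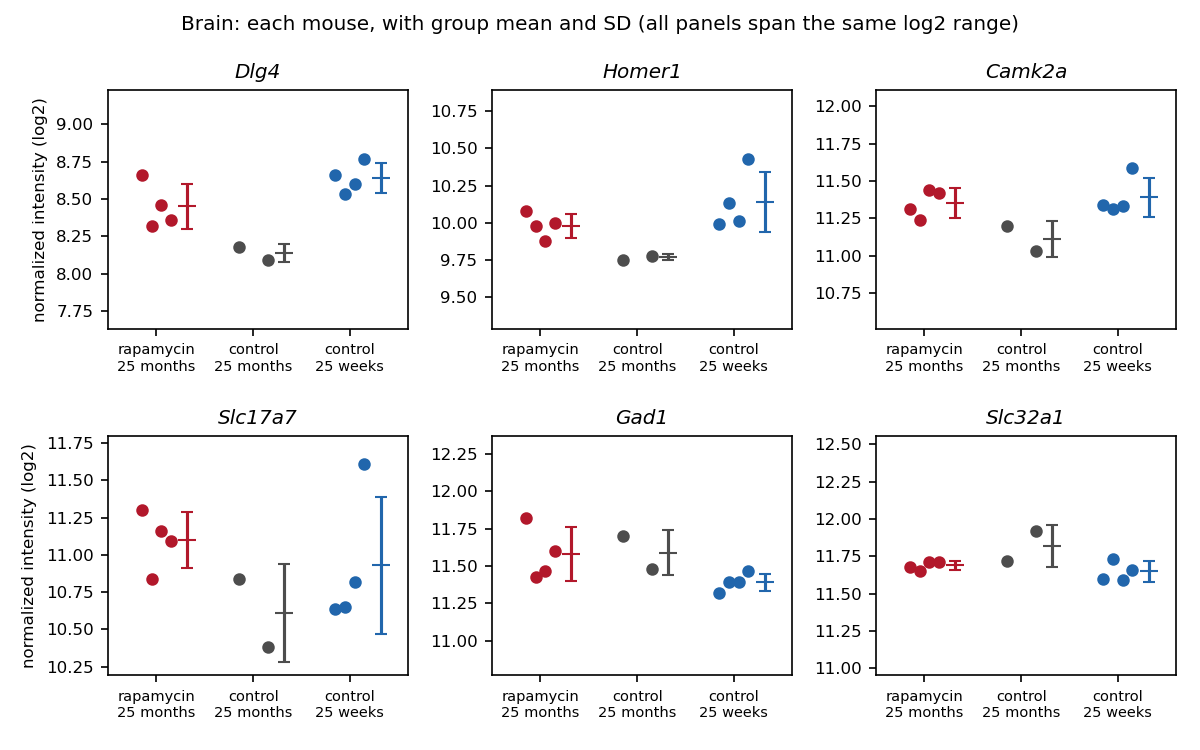
Log2 normalized intensity (vertical axis) of 6 genes in each brain, with rapamycin at 25 months on the left, control at 25 months in the middle and control at 25 weeks on the right. Points are mice and bars are group means with SD. For Dlg4 and Homer1 both 25-month controls lie below every other mouse, and for Slc17a7 the 25-week mouse at 11.61 stands apart from its group.

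Among the genes of vesicles and release, 0 of 9 were called in any of the 3 brain comparisons, and the median age difference was -0.14. Syn1 read 12.55, 12.31, 12.39 and 12.51 in rapamycin brains, 12.16 and 11.97 in 25-month controls, and 12.34, 12.23, 12.31 and 12.74 in 25-week controls by its brighter probe. The 25-month controls were the lowest arrays. This probe gave an age difference of -0.34 ± 0.14 (adjusted p = 0.306) and a rapamycin minus 25-month control difference of 0.38 ± 0.14 (adjusted p = 0.432). A second Syn1 probe disagreed, with differences of 0.00 ± 0.11 and -0.05 ± 0.11.

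Syp, the vesicle membrane protein synaptophysin, was -0.20 ± 0.11 with age and 0.20 ± 0.11 under rapamycin against 25-month control. Rab3a was 0.17 ± 0.11 with age and -0.11 ± 0.11 under rapamycin against 25-month control. Vamp2 was 0.11 ± 0.10 with age, with both 25-month controls at or above every 25-week array. Stx1a, the plasma membrane syntaxin, was -0.12 ± 0.07 in rapamycin against 25-week brains, the 1 gene without overlap there. Cplx1 varied by less than 0.3 over the 10 arrays, as did Stx1a. None of these differences passed the threshold.

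Of the 4 glutamate receptor subunits tested, 0 were called. Gria1 gave age differences of -0.11 ± 0.13, -0.26 ± 0.15 and -0.15 ± 0.15 from 3 probes. Gria2 was -0.08 ± 0.10 with age and 0.19 ± 0.10 under rapamycin against 25-month control (adjusted p = 0.563), where its second probe gave -0.01 ± 0.09. Gria3 was -0.04 ± 0.13 and -0.15 ± 0.13 in the same comparisons. Grin2b, read near background, was -0.33 ± 0.17 with age. By the brightest probe, the 95% intervals of all 4 genes included 0 in each of the 3 comparisons.

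In transmitter synthesis and transport, 0 of 4 genes were called. Slc17a7 read 11.30, 10.84, 11.16 and 11.09 in rapamycin brains, 10.84 and 10.38 in 25-month controls, and 10.64, 10.65, 10.82 and 11.61 in 25-week controls. It had the widest range of the 29 genes, 1.23 over the 10 arrays, with 25-week mouse 4 highest and 25-month control 2 lowest. Rapamycin minus 25-month control was 0.49 ± 0.23 (95% interval -0.02 to 1.00, adjusted p = 0.517). Without 25-month control 2 it was 0.26, and without 25-month control 1 it was 0.72. The age difference was -0.32 ± 0.23 (adjusted p = 0.632), and -0.10 without 25-week mouse 4.

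Slc32a1 read 11.68, 11.65, 11.71 and 11.71 in rapamycin brains, 11.72 and 11.92 in 25-month controls, and 11.60, 11.73, 11.59 and 11.66 in 25-week controls. Here 25-month control 2 was the highest array. The age difference was 0.17 ± 0.09 (adjusted p = 0.472) and rapamycin minus 25-month control -0.13 ± 0.09. Gad1 was 0.20 ± 0.12 with age (adjusted p = 0.527) and -0.01 ± 0.12 under rapamycin against 25-month control. Its dimmer probe gave 0.07 ± 0.13 and -0.03 ± 0.13. Slc17a6, the second vesicular glutamate transporter, was -0.05 ± 0.10 and -0.11 ± 0.10 in the same order.

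Of the 4 neuropeptides, 0 were called. Cck read 10.40, 10.50, 10.41 and 10.55 in rapamycin brains, 10.32 and 10.47 in 25-month controls, and 10.70, 10.70, 10.77 and 10.49 in 25-week controls. Both 25-month controls lay below every 25-week array, narrowly so for 25-week mouse 4. Its age difference was -0.27 ± 0.10 (adjusted p = 0.281) and rapamycin minus 25-week control -0.20 ± 0.08 (adjusted p = 0.327). Sst was 0.06 ± 0.11 with age and -0.19 ± 0.11 under rapamycin against 25-month control. Npy, which varied by 0.22 over the 10 arrays, was 0.06 ± 0.09 and -0.01 ± 0.09, and Vip was -0.04 ± 0.12 and -0.03 ± 0.12. In the cytoskeleton group Nefm was -0.15 ± 0.09 with age and Nefh -0.05 ± 0.15.

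The probes of Map2 disagreed as well. Its brightest probe read 0.01 ± 0.08 in rapamycin against 25-week brains, while 2 dimmer probes read -0.48 ± 0.17 (adjusted p = 0.223) and -0.53 ± 0.21 (adjusted p = 0.309). In rapamycin against 25-month control the brightest probe read 0.11 ± 0.10, and the dimmer probes -0.30 ± 0.20 and -0.36 ± 0.26 in the same order. One dimmer probe read 8.51, 7.45, 7.5 and 7.42 in rapamycin brains, 8.19 and 7.97 in 25-month controls, and 8.19, 8.16, 8.03 and 8.60 in 25-week controls. Rapamycin mice 2, 3 and 4 lay below every control on that probe, and rapamycin mouse 1 lay among the controls. The other dimmer probe read 7.83 in rapamycin mouse 1 and 6.96, 7 and 6.97 in rapamycin mice 2, 3 and 4.

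**Figure D4:**
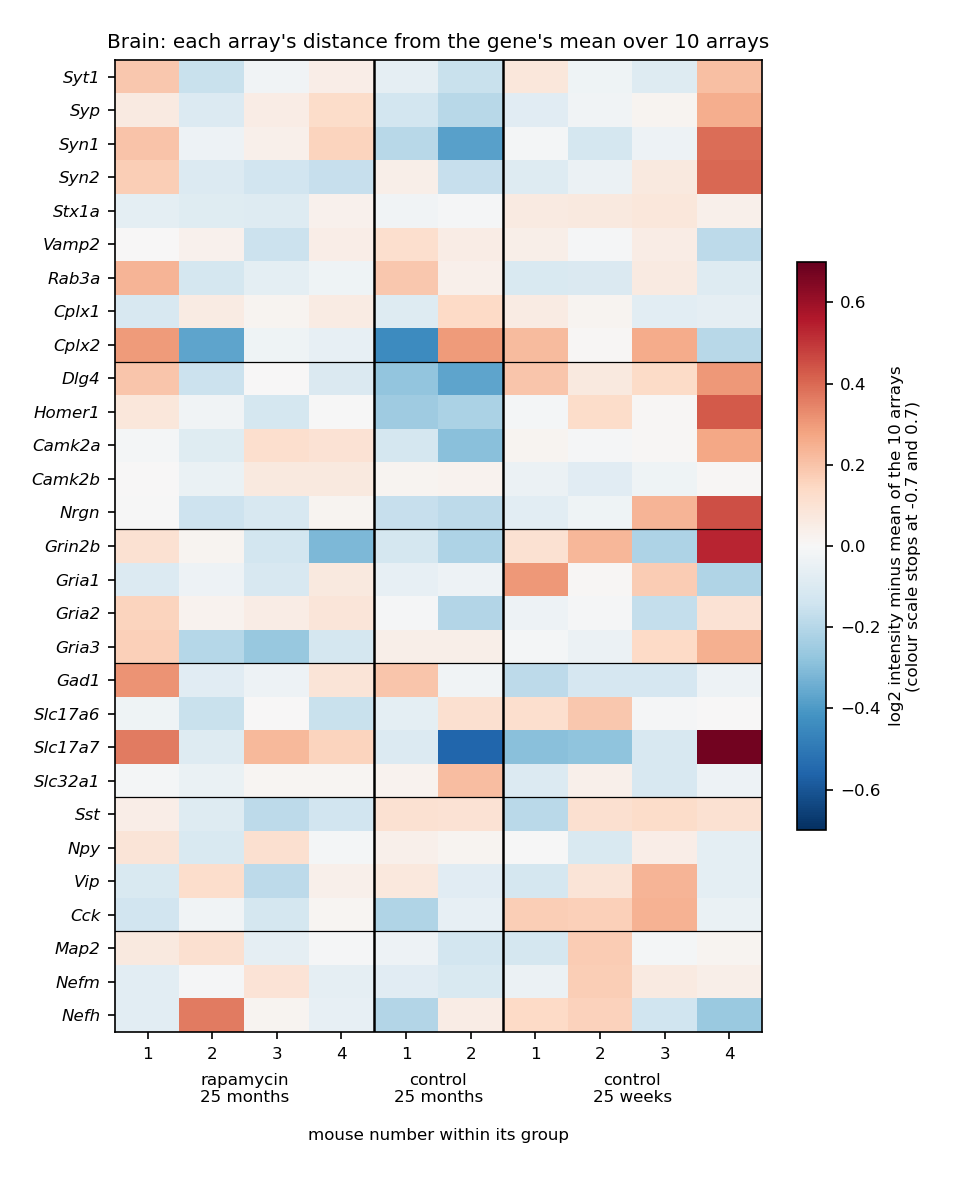
Distance of each brain array from the gene's mean over the 10 arrays, in log2 units by colour, for 29 genes (rows, in groups by role) and 10 mice (columns, rapamycin at 25 months, control at 25 months and control at 25 weeks). The last column, 25-week mouse 4, is the highest array for 11 genes, and 25-month control 2 is the lowest for 9.

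Single mice stood out over many of the genes. The brain of 25-week mouse 4 was the highest array for 11 of the 29 genes, or 37.9%, whereas it was highest for 14.6% of all probes. These genes were Syt1, Syp, Syn1, Syn2, Dlg4, Homer1, Camk2a, Nrgn, Grin2b, Gria3 and Slc17a7. It was at the same time the lowest for Vamp2, Gria1 and Nefh. The brain of 25-month control 2 was the lowest for 9 genes, or 31%, among them Dlg4, Camk2a, Nrgn and Slc17a7, whereas it was lowest for 11.3% of all probes. Over all 29 genes the median distance of an array from the gene means ran only from -0.08 to 0.065.

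Marker lists of brain regions and other cells moved between the same arrays. For 6 olfactory bulb genes of 8 listed the median distance lay between 0.17 and 0.47 in the 4 rapamycin brains. It was 0.24 in 25-month control 1, within that range, and -0.63 in 25-month control 2. Among 25-week mice it was -0.54 in mouse 2 and between -0.11 and 0.06 in the others. The summed intensity of these genes on the linear scale ran from 2436 to 2865 in rapamycin brains, from 1591 to 2386 in 25-month controls and from 1666 to 2220 in 25-week controls. The bulb genes Eomes and Tbx21 were detected on no brain array. The list of 8 cortical and hippocampal genes tested was highest in 25-week mouse 4, at 0.23. With both arrays low in bulb genes left out, a step chosen after seeing the data, Dlg4 gave an age difference of -0.49 (adjusted p = 0.359), Homer1 -0.39 and Slc17a7 -0.19, and none of the 29 genes passed. The part of region in these differences was not tested.

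Genes of several other cell types passed the test with age. Over all probes, 0.85% passed with age and 1.09% in rapamycin against 25-week brains, in either direction. Of 13 microglial and macrophage genes, 7 rose at 25 months against 25 weeks in controls and 8 in rapamycin brains against 25-week brains. Their summed intensity ran from 4447 to 4929 in rapamycin brains, from 4420 to 4675 in 25-month controls and from 2887 to 3227 in 25-week controls, ranges that did not overlap between ages. Trem2, a microglial receptor, was 0.80 ± 0.10 higher with age (adjusted p = 0.00149, limma). Of 14 astrocyte genes 2 rose with age, Gfap by 1.06 ± 0.16 and Serpina3n by 1.6 ± 0.14. Of 10 blood and neutrophil genes 6 rose with age, and their median distance was 1.32 in 25-month control 1 but 0.26 in 25-month control 2. That distance ran from -0.39 to 0.4 in rapamycin brains and from -0.53 to -0.26 in 25-week brains. Between rapamycin and 25-month control brains the median difference of these genes was -0.87. Beside 9.83% of all probes, 6 of these genes reached an unadjusted p under 0.05, and 0 passed the test. Their summed intensity ran from 8990 to 13484 in rapamycin brains, from 9796 to 16611 in 25-month controls and from 9292 to 13223 in 25-week controls. The haemoglobin gene Hbb-b2 was detected on no brain array, a reading that holds for its probe only and does not measure blood content. Choroid plexus and ependymal cells line the ventricles and make cerebrospinal fluid. Over 8 of their genes, the median difference between rapamycin and 25-month control brains was -0.33. Beside the same 9.83% of all probes, 5 of these genes reached an unadjusted p under 0.05, and 0 passed. Their summed intensity ran from 8186 to 10253 in rapamycin brains, from 11677 to 14131 in 25-month controls and from 8828 to 12380 in 25-week controls, so rapamycin brains and 25-month controls did not overlap. Of 12 oligodendrocyte genes 0 passed. Whether these cells take part in the values of the neuronal genes was not tested.

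**Figure D5:**
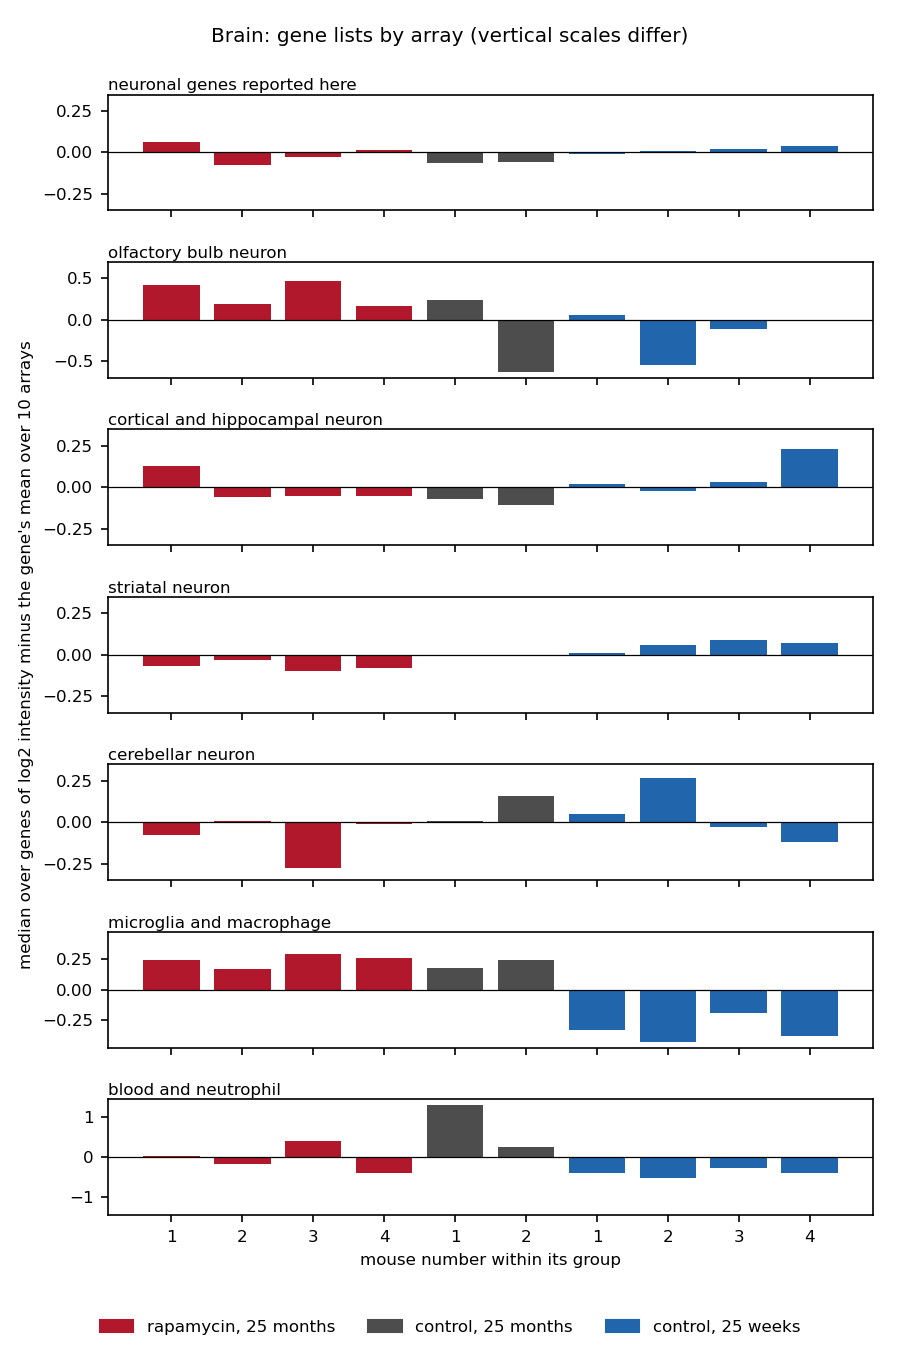
Median distance of a list's genes from their means over the 10 brain arrays (vertical axis, log2, with scales that differ between panels) for the neuronal genes and 6 marker lists, with bars for single mice in the order rapamycin at 25 months, control at 25 months and control at 25 weeks. Olfactory bulb genes are low at -0.63 in 25-month control 2 and at -0.54 in 25-week mouse 2, and microglial genes are above 0 in all 25-month brains and below 0 in all 25-week brains.

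Other neuronal genes, taken from lists that leave out the genes above, gave few calls. Of 24 further genes of the postsynaptic density and glutamate receptors, 0 passed with age, with a median of -0.19. An unadjusted p under 0.05 was reached by 7 of them, beside 12.6% of all probes. Of 25 further presynaptic genes 0 passed, with a median of -0.07 and 0 at an unadjusted p under 0.05. In the age comparison 0 of 28 further cytoskeletal and pan-neuronal genes, 0 of 16 genes of excitatory neurons, 0 of 8 cerebellar and 0 of 9 striatal genes passed, and the same held for both comparisons of rapamycin. Grik5, a kainate receptor subunit, was -0.40 ± 0.13 with age (adjusted p = 0.223) and Dlg2, a scaffold protein related to PSD-95, was -0.29 ± 0.12 (adjusted p = 0.334). In rapamycin against 25-week brains, where 1.09% of all probes passed in either direction, 1 of 12 genes of GABA and glycine synapses fell. The 12 genes had a median of -0.19 there, and 4 reached an unadjusted p under 0.05 (limma), beside 12.8% of all probes. The called gene was Glra2, a glycine receptor subunit, at 7.90, 7.88, 7.78 and 7.74 in rapamycin brains and 8.30, 8.20, 8.18 and 8.12 in 25-week brains, a difference of -0.38 ± 0.07 (adjusted p = 0.0287, limma). Of 22 further neuropeptide and interneuron genes, 1 fell in the same comparison, Nts, the neurotensin gene, by 0.49 ± 0.10 (adjusted p = 0.0412). Both calls were close to the threshold and were lost without 25-week mouse 2 (adjusted p = 0.0877 for Glra2 and 0.129 for Nts).

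Th and Avp, outside the set, also passed in brain. In rapamycin against 25-week brains, Th was the 1 gene called of 10 monoamine and cholinergic genes, whose median was -0.03. It was also the 1 called of 6 bulb genes, whose median was 0.53. With age, Avp was the 1 called of 10 thalamic and hypothalamic genes, whose median was 0.05. Th codes for an enzyme of dopamine synthesis and also marks bulb interneurons. It read 6.76, 6.62, 6.86 and 6.53 in rapamycin brains and 6.26, 5.71, 6.29 and 5.97 in 25-week brains, a rise of 0.64 ± 0.13 (adjusted p = 0.0313, limma). Without 25-week mouse 2, an array low in bulb genes, it was 0.52 and no longer passed (adjusted p = 0.0733). Avp, the vasopressin gene of the hypothalamus, read 7.30 and 7.88 in 25-month controls and between 6.15 and 6.59 in 25-week controls, a rise of 1.18 ± 0.17 (adjusted p = 0.00473) that did not pass without 25-month control 2 (0.90, adjusted p = 0.0656). In rapamycin brains Avp read between 6.53 and 6.90, a difference of -0.88 ± 0.17 from 25-month control that did not pass (adjusted p = 0.17).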

How the data were processed

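Brain, kidney and heart RNA of 10 mice was measured on 30 Illumina BeadChip arrays. The authors deposited a probe intensity on a linear scale with no normalization, and, beside every intensity, its detection p-value, per the file headers. The submitters' processing notes name GenomeStudio 2011.1. A second deposited matrix held background-subtracted intensity with array medians of 11.71 to 12.07, with a normalization not given in the sources used here.

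Intensities were corrected with normexp (offset 16), quantile-normalised within brain and expressed as log2 values by neqc of limma 3.58.1 (R 4.3.3). Probes detected (p under 0.05) on at least 2 of 10 arrays were fitted with 1 mean per group and moderated, with Benjamini-Hochberg adjustment over all tested probes. The brightest probe stood for its gene. Tissues were compared over all 30 arrays, with the mouse as a random block (correlation 0.086) and the 3 groups weighted equally. The fit was tested on simulated data. Arrays give no counting depth, and their number limits precision. Replicate numbers named different mice and were therefore not used to pair samples. Same-numbered deviations correlated between -0.165 and 0.149 over 8 pairs, beside -0.178 to 0.269 for other numbers. The 2 deviations of the 25-month controls mirror each other, so these pairs are not independent.

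The genes and lists were chosen with earlier results of these data known. From the other lists, up to 4 called genes with the smallest p were named, or 2 where none was called, and C4b checked the labels. Alternatives changed normalization, offset, filter, moderation, values used and mice included.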

Additional observations from a re-analysis of the deposited data

Results flagged for a closer look

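Of 58 groups of 4 mice checked in brain, 3 held a mouse set apart from the rest of its group by Dixon's test, and chance marks about 1 in 20 such groups. All 3 were among the 25-week controls. Rab3a was highest in 25-week mouse 3 at 11.96, against 11.79 to 11.81 in the other 3 mice. Camk2a was highest in 25-week mouse 4 at 11.59, against 11.31 to 11.34. Sst was lowest in 25-week mouse 1 at 10.83, against 11.13 to 11.15.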

How the results depend on the processing

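No member passed in brain for rapamycin against either control under any of the 20 alternatives. With age, 1 member, Dlg4, passed under median scaling (-0.57, adjusted p = 0.0404), normalization over 30 arrays (-0.53), offset 50 (-0.45), the strict detection filter, variance trend with robust moderation, and without rapamycin mouse 1, and 0 passed under the others, so that leaving out each mouse in turn gave 0 to 1. The probes called with age were 123, and 188 with offset 50 or with variance trend and robust moderation, 72 with the replicate block, 23 to 133 without each mouse in turn, lowest without 25-month control 1, and 45 without both arrays low in bulb genes. For rapamycin against 25-month control, 4 became 20 with median scaling, 9 with the deposited matrix, 2 with no detection filter, 2 with the replicate block, 0 to 21 without each mouse and 1 without both low arrays. For rapamycin against 25-week control, 158 became 62 to 440 without each mouse, highest without rapamycin mouse 1, and 66 without both low arrays. The block on replicate number changed no call of a member, and under it Dlg4 had an adjusted p of 0.143. Of 406 recomputed member values in each tissue comparison, 404 against kidney and 405 against heart kept direction and side of the threshold. Gria3 against kidney turned to 0.20 and passed under median scaling (adjusted p = 0.0223). The cause of these shifts was not tested, except that fewer mice enter where one is left out. Glra2, Nts and Th each lost their call under several alternatives. Only 2 controls at 25 months and probes near background, such as that of Grin2b, limit what these arrays can show.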
